A study of Homo sapiens with 38 samples.

Results

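The collagen gene family was described here as every gene whose symbol is COL, a number, A and a number, without antisense genes. In all, 43 such genes had a probe set (a group of array probes) that names 1 gene, out of 19775 genes with one, and each gene was represented by its probe set with the highest mean log2 signal. Of these, 41 passed the filter on low signals and entered the fit of 18063 genes; COL9A1 and COL24A1 did not, and COL17A1 was not analysed here. Expression was measured on 38 one-colour arrays of A375, a human melanoma cell line, called parental, and of 16R6-4, a single clone of A375 with acquired resistance to GSK2118436, called resistant. GSK436 stands for GSK2118436 (dabrafenib), an inhibitor of RAF kinases, and GSK212 for GSK1120212 (trametinib), an inhibitor of MEK, the next kinase on the way to ERK. Both lines grew in culture without other cells added and were exposed for 24 h to DMSO (the solvent control), GSK436 (0.1 or 1 µM), GSK212 (10 or 30 nM) or a combination of 10 nM GSK212 with either GSK436 dose, named here by that dose. Parental groups held 3 arrays, except both GSK436 doses and 30 nM GSK212 with 2, which the labels number 2 and 3. Resistant groups held 3 arrays, except DMSO with 2.

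Collagens are extracellular proteins of 3 chains wound into a triple helix, and each gene encodes 1 kind of chain. Fibrillar collagens build the fibrils of connective tissue, type IV collagens build the network of basement membranes, fibril-associated (FACIT) collagens sit on fibrils, type VI collagens form beaded filaments, type VII collagen anchors epithelia to the tissue beneath, and transmembrane collagens span the cell surface. Fibroblasts are the main source of fibrillar collagen in most tissues, and melanoma cells also make several collagens themselves.

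All values are signals in arbitrary units on a linear scale, with the same trimmed mean on every array as deposited, and a signal is compared only within a gene, because probe sets differ in brightness. Changes are log2 fold changes ± SE of log2(signal + 2.8), which understates the change of dim genes, and a gene is said to be called, or to have risen or fallen, at a Benjamini-Hochberg adjusted p under 0.05 in limma's moderated test over all 18063 genes and a size of at least 1 in either direction. All treatments of a line were compared with the same DMSO arrays, so their counts are not independent of each other. Precision is limited by how many arrays each group has, and since no label ties the arrays to separate cultures, the p-values reflect only how far these samples spread, which may be technical. In bulk RNA, fewer cells with a transcript and less of it per cell cannot be told apart. Melanocyte lineage markers were measured for 8 of 9 genes. MIA ran from 1393 to 3993 and SOX10 from 427 to 1414 in parental arrays, against 4.89 to 73.2 and 1.96 to 21.0 in resistant arrays, MITF was present in both lines (283 to 734 and 864 to 1679), and the pigment genes PMEL, MLANA, TYR and TYRP1 had medians from 7.56 to 28.5 in either line, under the pooled median signal of 34.88. The 3'/5' actin probe ratio, a sign of RNA quality, averaged 7.76 with DMSO in parental cells and 37.3, 27.9, 17.8, 20.9, 10.7 and 22.25 with 0.1 and 1 µM GSK436, 10 and 30 nM GSK212 and the combinations at 0.1 and 1 µM, and in resistant cells it averaged 5.47 with DMSO and 8.16 to 22.7 with inhibitor. It thus moved with treatment; its part in each result was not tested beyond the values given beside it.

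Several type IV collagen genes lie head to head, so that a pair of them is read in opposite directions from 1 short stretch of DNA, and the sequences between them are shown because the measured genes of such pairs are compared further on. COL4A2 and COL4A1 are separated by 126 bases on chromosome 13 (chr13:110307158-110307283, plus strand, GRCh38.p14, RefSeq). COL4A5 and COL4A6 are separated by 379 bases on chromosome X, of which the 250 upstream of COL4A5 are shown (chrX:108439588-108439837, plus strand). For COL13A1, the member called in the most comparisons (13), the 250 bases upstream of its start are shown (chr10:69801656-69801905, plus strand). Capitals mark matches, on either strand, to letters searched for 5 kinds of site: TGANTCA for AP-1, GGGCGG for the GC box, CCAAT for the box of that name, TATAAA for the TATA box and CCGGAA for ETS factors.
COL4A2 and COL4A1: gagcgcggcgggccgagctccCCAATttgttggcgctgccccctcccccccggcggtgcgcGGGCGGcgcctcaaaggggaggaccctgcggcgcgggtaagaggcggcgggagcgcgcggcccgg
COL4A5: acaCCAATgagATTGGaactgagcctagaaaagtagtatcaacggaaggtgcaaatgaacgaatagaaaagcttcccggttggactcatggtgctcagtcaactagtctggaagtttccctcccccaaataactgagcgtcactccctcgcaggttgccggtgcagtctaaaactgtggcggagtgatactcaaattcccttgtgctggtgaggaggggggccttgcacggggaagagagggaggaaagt
COL13A1: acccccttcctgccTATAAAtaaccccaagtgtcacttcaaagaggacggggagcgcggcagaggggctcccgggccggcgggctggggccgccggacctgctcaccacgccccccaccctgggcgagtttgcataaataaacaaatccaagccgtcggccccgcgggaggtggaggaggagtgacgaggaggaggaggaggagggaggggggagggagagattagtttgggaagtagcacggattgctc

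The COL4A2 and COL4A1 stretch held 1 CCAAT box and 1 GC box at 80.2% G and C, the COL4A5 stretch held 2 CCAAT boxes at 51.2%, and the COL13A1 stretch held 1 TATA box at 64%. In RefSeq's promoter windows, which run from 250 bases before to 50 after a start, 31 of the 43 collagen genes had an entry, with 43 windows among them. A GC box was in 24 of the 43 collagen windows (55.8%) and in 45% of all 35114 windows, a CCAAT box in 13 (30.2%) and 34.6%, and a TATA box in 7 (16.3%) and 11.5%. An AP-1 site was in 1 collagen window (2.33%), that of COL10A1, and in 7.71% of all windows, and the ETS letters were in 0 collagen windows and in 17.2% of all. These matches describe the letters of the windows and nothing about binding.

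Inhibitor changed part of the collagen family in parental cells, in both directions. COL1A1 and COL5A1, chains of fibrillar collagens, COL9A2, a FACIT chain, and COL4A5, a basement membrane chain, rose with each of the 6 treatments. For COL9A2 and COL4A5 the rises rest on 1 probe set each, and the other was called with none of the 6. Further limits of these calls are given below. COL13A1, a transmembrane collagen, and COL6A3, a chain of the beaded filaments, fell with each of the 6. COL4A1, a main chain of basement membranes, fell with 5 of 6. In the resistant clone, GSK436 alone moved none of the 41 genes past the threshold, while treatments that held GSK212 raised COL1A1 and COL5A1 and lowered COL13A1. Of the other probe sets of COL1A1 (4) and COL13A1 (2), at most 1 was called with any parental treatment. None of them was called with these resistant treatments. Over all 19 comparisons, 22 of the 41 genes (53.7%) were called at least once, against 36.2% of all genes.

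**Figure D1:**
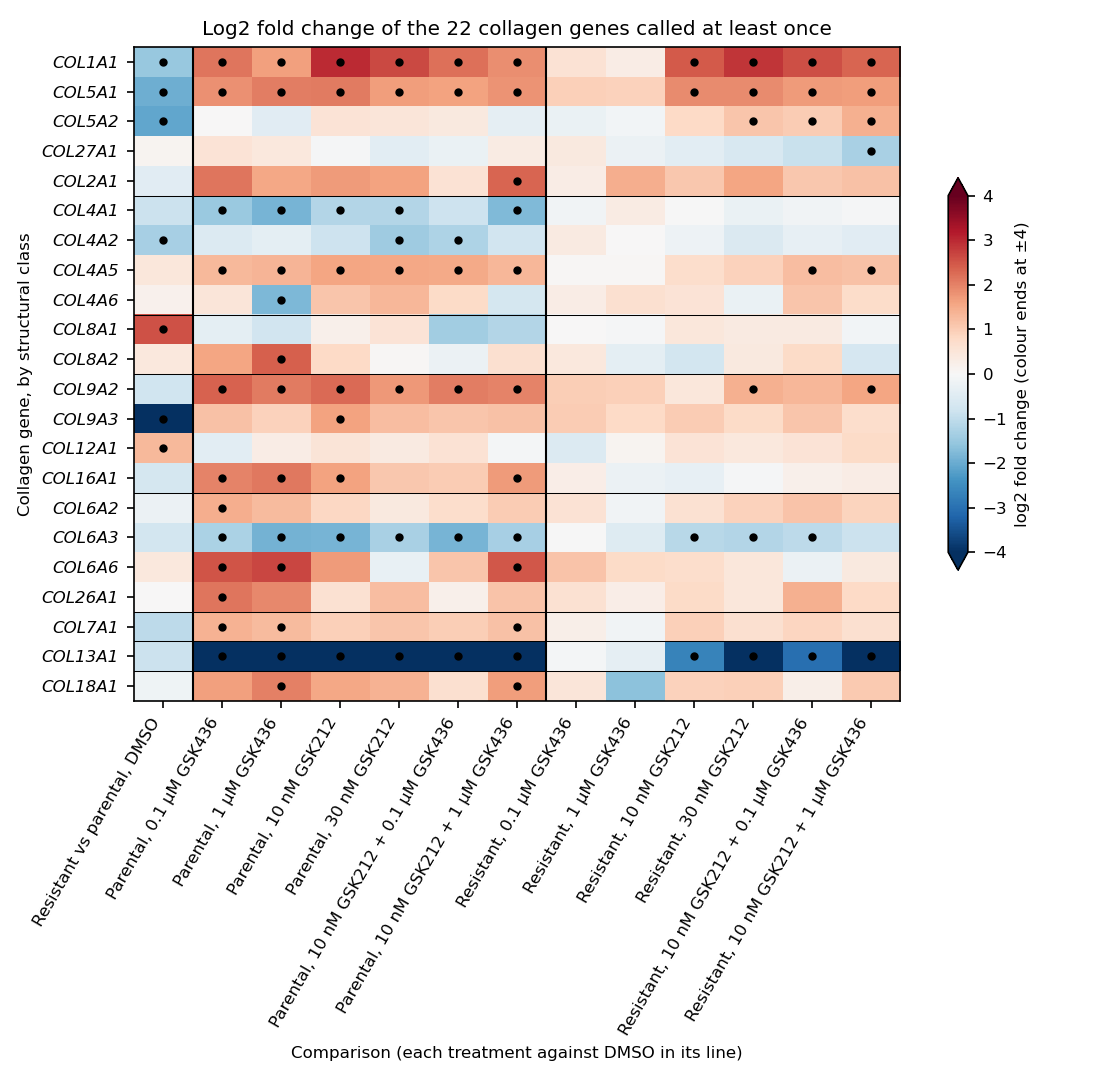
Log2 fold change of the 22 collagen genes called in at least 1 of the 19 comparisons, by structural class (rows, with lines between classes), in the resistant against the parental line with DMSO and with each treatment against DMSO in each line (columns). Colour gives the log2 fold change, with its ends at 4 in either direction, and a dot marks a called change; in the resistant columns GSK436 alone carries no dot.

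In parental cells 1 µM GSK436 raised 9 and lowered 4 of the 41 collagen genes (31.7%), against 19.5% of all genes called, 11.8% higher and 7.68% lower. At 0.1 µM, 9 rose and 3 fell (29.3%), against 17.8% of all genes, 11.4% higher and 6.39% lower. With 10 nM GSK212, 6 rose and 3 fell (22%), against 11.7%, 7.68% higher and 4.04% lower. With 30 nM, 4 rose and 4 fell (19.5%), against 9.89%, 6.47% higher and 3.42% lower. The share of collagen genes called was thus above that of all genes in each. The 0.1 µM combination gave 4 higher and 3 lower (17.1%), against 10.6%, 6.96% higher and 3.63% lower. The 1 µM combination gave 9 higher and 3 lower (29.3%), against 17%, 11.2% higher and 5.74% lower. The median log2 fold change over the 41 genes was 1.18 with 1 µM GSK436, against 0.39 over all genes, and 0.52 with 10 nM GSK212, against 0.17.

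The split between higher and lower calls rested on the scaling of the arrays. Centring each array on its median moved the median of all genes from 0.39 to -0.32 with 1 µM GSK436 and from 0.17 to -0.12 with 10 nM GSK212. With centring, 1 µM GSK436 gave 4 higher and 6 lower collagen genes, 0.1 µM gave 5 and 6, and 10 nM GSK212 gave 5 and 4. The combination at 0.1 µM then gave 4 and 5, and that at 1 µM gave 5 and 6 (6 and 4 with quantile normalization). Among all genes called, centring took the percent higher from 60.6 to 13.1 with 1 µM GSK436 and from 64.1 to 10.8 with 0.1 µM. It went from 65.5 to 40.3 with 10 nM GSK212. For the combinations at 0.1 and 1 µM it went from 65.8 to 24.7 and from 66.1 to 14.6. The calls for COL5A1, COL13A1 and COL6A3 in parental cells stood under every normalization tried, and so did those for COL9A2 and, save with 1 µM GSK436 after centring (0.93), for COL1A1. Without array 3 of 1 µM GSK436, its count of calls was 8.

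**Figure D2:**
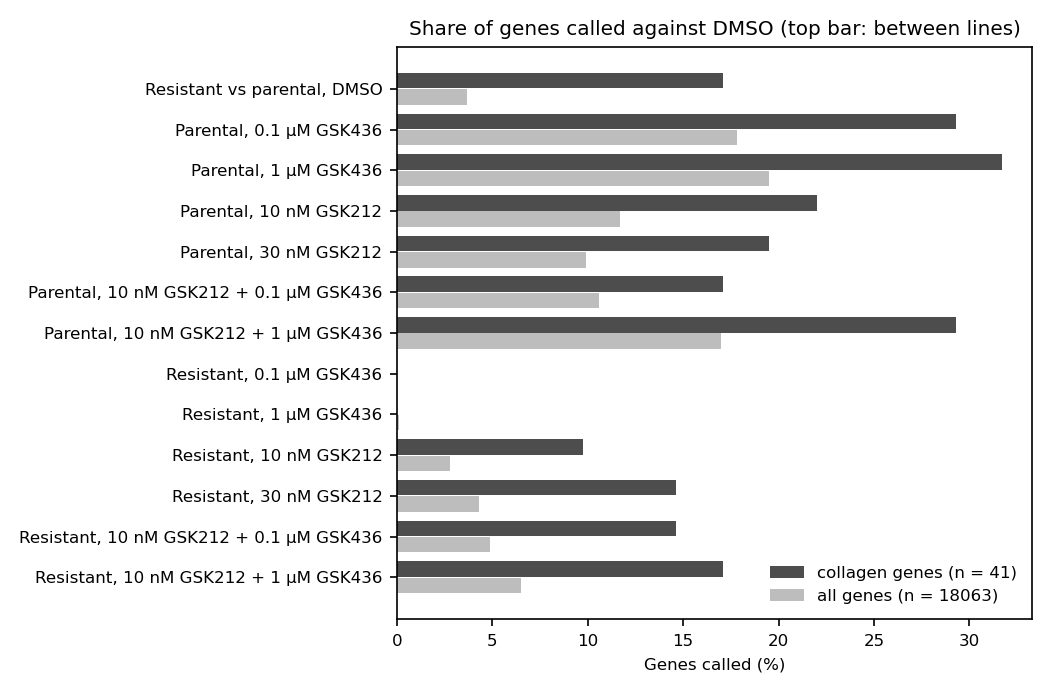
Percent of the 41 collagen genes (dark bars) and of all 18063 genes (light bars) called in each comparison with DMSO and, in the top bars, in the resistant against the parental line. The collagen bars reach 31.7% with 1 µM GSK436 in parental cells and stand at 0 with GSK436 alone in resistant cells.

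COL13A1 (chr10:69801906-69959144, GRCh38.p14) encodes a transmembrane collagen found at cell contacts and at the nerve-muscle junction. Its signal was 1161, 1047 and 1199.5 on the parental DMSO arrays. With 0.1 µM GSK436 it was 39.7 and 61.2, with 1 µM it was 5.28 and 43.9, and with 10 nM GSK212 it was 21.9, 2.03 and 2.30. With 30 nM GSK212 it was 16.2 and 1.02, and in the combinations it ran from 5.75 to 47.1. Every treated parental array was thus far below each DMSO array, and most treated values lay under the pooled median of 34.88, where the size of a fold depends on the pseudocount. The log2 fold change was -4.45 ± 0.61 and -5.87 ± 0.61 with 0.1 and 1 µM GSK436 (limma, adjusted p = 9.03e-09 for 1 µM), -7.07 ± 0.55 and -7.06 ± 0.61 with 10 and 30 nM GSK212 (adjusted p = 6.96e-12 for 10 nM), and -6.19 ± 0.55 and -5.16 ± 0.55 with the combinations.

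The resistant clone had COL13A1 signals of 669 and 578 with DMSO, and its difference from the parental line did not pass the test (-0.86 ± 0.61, limma adjusted p = 0.595). With 0.1 µM GSK436 the arrays read 544, 569 and 662 and overlapped DMSO, and with 1 µM they read 489.8, 471 and 506, below both DMSO arrays but with no call (-0.35 ± 0.61, adjusted p = 1). With GSK212 the signal was 85.3, 126 and 81.3 at 10 nM and 25.9, 27.6 and 33.2 at 30 nM, all below the DMSO arrays. The combinations gave 75.9, 76.9 and 68.5 with 0.1 µM GSK436 and 22.2, 36.0 and 26.7 with 1 µM. COL13A1 fell by 2.67 ± 0.61 at 10 nM GSK212 (limma adjusted p = 0.00641), by 4.31 ± 0.61 at 30 nM, by 3.03 ± 0.61 in the combination at 0.1 µM and by 4.35 ± 0.61 in that at 1 µM. The call at 10 nM was lost without resistant DMSO array 1 (-2.56, adjusted p = 0.0837) or array 2 (-2.77, adjusted p = 0.0681), and without the arrays with an actin ratio above 20 (-2.28, adjusted p = 0.0654).

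The change of COL13A1 differed between the lines by 5.53 ± 0.87 with 1 µM GSK436 (resistant minus parental change, limma adjusted p = 5.18e-05) and by 4.40 ± 0.82 with 10 nM GSK212 (adjusted p = 0.00133). With the 1 µM combination the difference was 0.81 ± 0.82 and did not pass (adjusted p = 0.742). In resistant cells the 1 µM combination was lower than 1 µM GSK436 alone (-4.01 ± 0.55, adjusted p = 2.17e-06), and its difference from 10 nM GSK212 alone was -1.69 ± 0.55 (adjusted p = 0.14). COL13A1 has 2 further probe sets, with median signals of 30.9 and 33.7, and their changes were smaller: in parental cells they gave -2.45 and -0.20 with 1 µM GSK436 and -2.43 and -1.74 with 10 nM GSK212, with 1 of the 2 called each time. In the other 4 parental treatments they gave -1.97 to -0.22, in the 4 resistant treatments that held GSK212 -2.33 to -0.97, and for the resistant 1 µM combination against 1 µM GSK436 -0.87 and -0.76, none of these called. The 2 further probe sets gave line differences of -0.28 and 2.24 with 1 µM GSK436 and of 0.09 and 0.94 with 10 nM GSK212, none of them called, and with the mean of all probe sets the line difference at 10 nM lost its call.

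COL6A3 (chr2:237324018-237414164) encodes the largest chain of type VI collagen, and it has 1 probe set. Parental DMSO arrays gave 332, 379 and 286. With 1 µM GSK436 the signal was 79.7 and 96.9, with 10 nM GSK212 it was 68.9, 99.5 and 102, and over all treated parental arrays it ran from 57.4 to 174, so that no treated array reached the DMSO range. COL6A3 fell by 1.88 ± 0.29 with 1 µM GSK436 (limma adjusted p = 7.41e-06), by 1.86 ± 0.26 with 10 nM GSK212 (adjusted p = 1.09e-06) and by 1.26 to 1.85 with the other treatments. The calls for 0.1 µM GSK436 and 30 nM GSK212 were lost without array 3 of the former (-0.91) and array 2 of the latter (-0.98).

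Resistant cells gave COL6A3 signals of 228 and 175 with DMSO, 168 to 223 with 0.1 µM GSK436 and 118 to 153 with 1 µM. The 10 nM GSK212 arrays read 88.3, 99.8 and 85.8 and lay below both DMSO arrays. COL6A3 fell by 1.11 ± 0.29 with 10 nM GSK212 (limma adjusted p = 0.0179), by 1.19 ± 0.29 with 30 nM and by 1.04 ± 0.29 with the 0.1 µM combination, while the 1 µM combination, at -0.87 ± 0.29, was under the size threshold. These 3 calls rest on few arrays: without resistant DMSO array 1 the values were -0.92, -1.0 and -0.85, none called, and without array 2 the calls at 10 nM (-1.30) and in the 0.1 µM combination (-1.22) were lost. The call at 10 nM was also lost without array 1 (-1.09) or 3 (-1.07) of that group, and that of the combination without its array 3 (-0.98). The line difference with 1 µM GSK436 was 1.35 ± 0.41 (adjusted p = 0.0244), and leaving out single arrays gave 1.16 to 1.54, with the call lost for 7 of 10 arrays (parental DMSO 2, both parental GSK436 arrays, both resistant DMSO arrays, and resistant GSK436 arrays 2 and 3). Of the partner chains, COL6A1, with signals from 237 to 687 over all arrays, was never called: its changes against DMSO ran from -0.36 to 0.60 over both lines, and its difference between the lines was -0.92 ± 0.21 (limma adjusted p = 0.00386), under the size threshold. COL6A2 was called higher only with 0.1 µM GSK436 in parental cells (1.44 ± 0.55, limma adjusted p = 0.0489), a call lost without any 1 of the 5 arrays compared but DMSO array 3 (1.13 to 1.53). That call was kept in only 2 of 8 other settings, and quantile normalization and centring were among those that ended it.

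**Figure D3:**
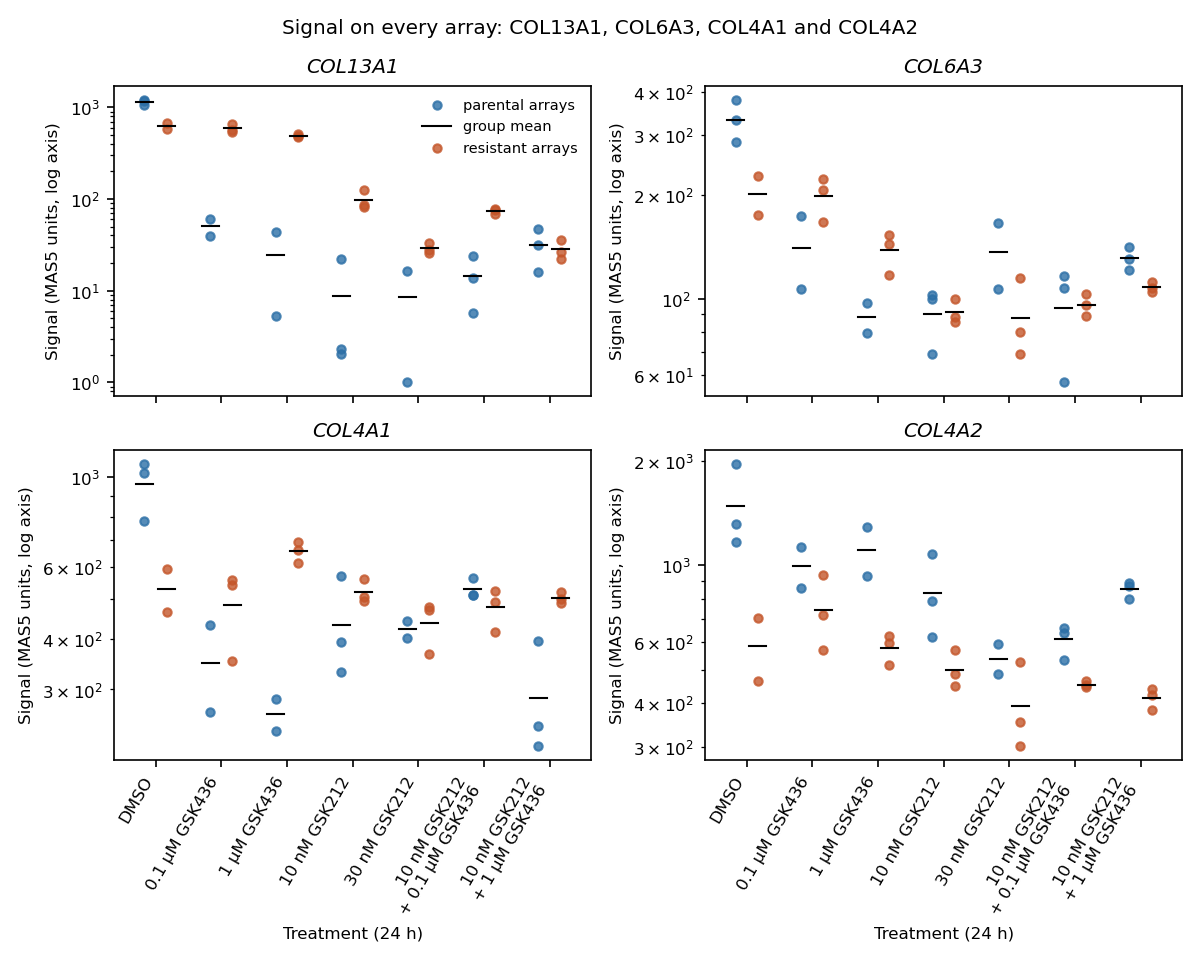
Signal on every array (points, logarithmic axis) of COL13A1, COL6A3, COL4A1 and COL4A2 by treatment, with parental arrays in blue, resistant arrays in orange and black bars for group means. COL13A1 drops from at least 1047 to at most 61.2 in every treated parental array, and stays at 471 or above in resistant cells with DMSO or GSK436 alone.

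The head-to-head pair of basement membrane genes, COL4A1 (chr13:110148963-110307157) and COL4A2 (chr13:110307284-110513209), encodes the chains of the main type IV network, and the stretch between them is the first sequence shown above. COL4A1 read 1023, 1078 and 778 with DMSO in parental cells, 284 and 237 with 1 µM GSK436, and 330.4, 393 and 570.1 with 10 nM GSK212. The 1 µM combination gave 243, 395 and 218. No treated array of these 3 groups reached the DMSO range. COL4A1 fell by 1.86 ± 0.24 with 1 µM GSK436 (limma adjusted p = 3.71e-07), by 1.17 ± 0.21 with 10 nM GSK212 (adjusted p = 6.57e-05) and by 1.77 ± 0.21 with the 1 µM combination, and its change with the 0.1 µM combination, -0.84 ± 0.21, was under the size threshold. Its other probe set gave -1.78 with 1 µM GSK436, which was called, and -1.16 with 10 nM GSK212, which was not, and with the mean of both the call at 30 nM GSK212 was lost (-0.96).

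In the resistant clone COL4A1 read 465 and 595 with DMSO and 660.0, 616 and 693 with 1 µM GSK436, and none of its 6 changes was called (-0.27 to 0.32). The change differed between the lines by 2.18 ± 0.33 with 1 µM GSK436 (limma adjusted p = 3.92e-05), by 1.16 ± 0.32 with 10 nM GSK212 (adjusted p = 0.0423) and by 1.71 ± 0.32 with the 1 µM combination (adjusted p = 0.00174). The first was called under every setting that could be computed. The second was lost without any of 9 of the 11 arrays compared (0.98 to 1.34), which leaves parental DMSO array 3 and parental GSK212 array 3. It was also lost after centring, with the mean of all probe sets (0.5), in a fit of those groups alone and without arrays of high actin ratio. The last was lost with centring, with the mean of all probe sets and without arrays of high actin ratio. For these differences the other probe set of COL4A1 gave 1.61 with 1 µM GSK436 and 0.91 with the 1 µM combination, neither called.

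In parental cells COL4A2 was called with 30 nM GSK212, as COL4A1 was, and with the 0.1 µM combination, where COL4A1 was not. Its parental DMSO signals were 1318, 1170.4 and 1958, its 1 µM GSK436 signals of 932 and 1288 overlapped them, and that change was -0.40 ± 0.24 (limma adjusted p = 0.213). With 30 nM GSK212 the signals were 591 and 484, and with the 0.1 µM combination they were 639, 532.5 and 661, all below DMSO. COL4A2 fell by 1.43 ± 0.24 with 30 nM GSK212 (adjusted p = 3.5e-05) and by 1.25 ± 0.21 with the 0.1 µM combination (adjusted p = 3.89e-05). Its second probe set gave -0.67 and -0.50 there, neither called, and with the mean of both these calls were lost (-1.05 and -0.87). Whether the changes of COL4A1 and COL4A2 differ from each other was not tested, since they come from separate probe sets.

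COL4A5 (chrX:108439838-108697545) encodes a chain of the type IV network of kidney, lung and other specialised basement membranes. Its parental DMSO signals were 44.3, 55.3 and 35.7. All treated parental arrays lay between 94.1 and 161, above each DMSO array. COL4A5 rose by 1.29 ± 0.29 to 1.57 ± 0.26 over the 6 treatments, with adjusted p from 2.43e-05 to 0.00143 (limma). After centring its calls were lost with 0.1 µM GSK436 (0.48), 1 µM GSK436 (0.66) and the 1 µM combination (0.63), and with quantile normalization those of 0.1 µM GSK436 (0.83) and the 1 µM combination (0.95). In resistant cells DMSO gave 69.7 and 54.0, GSK436 alone gave 49.4 to 92.7, and the 1 µM combination gave 142, 129 and 152. COL4A5 rose there by 1.16 ± 0.29 with the 1 µM combination (adjusted p = 0.00684) and by 1.23 ± 0.29 with that at 0.1 µM (adjusted p = 0.00553), calls that were lost without resistant DMSO array 2 (0.98 and 1.05), with quantile normalization and after centring. The rises rest on 1 probe set: the other, of low signal, gave -0.93 to 0.04 in parental cells, and the mean of the 2 was called in none of the 6 parental treatments nor with either combination in resistant cells (0.53 and 0.81).

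The other gene of that pair, COL4A6, was dim (median signal 29.6) and its 2 calls, lower with 1 µM GSK436 in parental cells than with DMSO (-1.78 ± 0.69, limma adjusted p = 0.0492) and than with 10 nM GSK212 (-2.88 ± 0.69, adjusted p = 0.0262), were lost on leaving out any of the 5 arrays compared (-1.96 to -1.61), or for the second any but GSK212 array 1 (-3.08 to -2.71). COL4A3 and COL4A4 were never called and had median signals of 23.9 and 22.8.

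The fibrillar class had 10 genes in the fit, of which 5 (50%) were called at least once, against 36.2% of all genes, and with 1 µM GSK436 in parental cells its share of 20% was near the 19.5% of all genes. COL1A1 (chr17:50184101-50201631) encodes the main chain of type I collagen, the chief fibril protein of skin and bone. In parental cells its signal was 34.5, 35.8 and 71.8 with DMSO, 141 and 151 with 1 µM GSK436, and 504, 456 and 228 with 10 nM GSK212. Both treated groups lay wholly above DMSO. COL1A1 rose by 1.65 ± 0.42 with 1 µM GSK436 (limma adjusted p = 0.00332; 0.93 after centring, not called), by 2.99 ± 0.38 with 10 nM GSK212 (adjusted p = 2.17e-07) and by 1.85 to 2.65 with the other treatments. The difference between 1 µM GSK436 and 10 nM GSK212 was -1.34 ± 0.42 and did not pass (adjusted p = 0.101).

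The resistant clone read 17.3 and 11.2 for COL1A1 with DMSO. GSK436 at 1 µM gave 27.8, 23.8 and 8.18, which overlapped DMSO (0.31 ± 0.42, limma adjusted p = 1). With 10 nM GSK212 the arrays read 68.1, 91.1 and 115, and with the 1 µM combination 75.3, 78.3 and 89.9, all above DMSO and above GSK436 alone. COL1A1 rose by 2.46 ± 0.42 with 10 nM GSK212 (adjusted p = 0.000226), by 2.86 ± 0.42 with 30 nM, and by 2.32 ± 0.42 with the 1 µM combination (adjusted p = 0.000176), which was also higher than 1 µM GSK436 alone (2.01 ± 0.38, adjusted p = 0.000269). The 4 other probe sets of COL1A1 gave smaller values, from -0.73 to 0.97 with 10 nM GSK212 in resistant cells and from 0.48 to 1.72 in parental cells, and none of them was called there. With the mean of all its probe sets the 4 resistant calls were lost (0.41 to 0.98), and so were the parental calls with 1 µM GSK436 (1.19), 30 nM GSK212 (1.31) and the 1 µM combination (0.83). The last was also lost without arrays of actin ratio above 20 (1.34, adjusted p = 0.106). COL1A2, the partner chain of COL1A1 in type I collagen, was never called and had a median signal of 21.4, and COL3A1, the chain of type III collagen, was likewise never called (median 18.9).

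COL5A1 (chr9:134641803-134844843) and COL5A2 (chr2:189031898-189441111) encode chains of type V collagen, which starts and limits the growth of type I fibrils. COL5A1 read 73.9, 60.8 and 98.9 with DMSO in parental cells, 308 and 345 with 1 µM GSK436, and 295, 348 and 358 with 10 nM GSK212, with no overlap. It rose by 2.05 ± 0.29 (limma adjusted p = 2.65e-06) and 2.08 ± 0.26 (adjusted p = 2e-07), and by 1.61 to 1.82 with the other 4 treatments. In resistant cells DMSO gave 26.6 and 11.4, 1 µM GSK436 gave 36.0, 32.7 and 40.2, and 10 nM GSK212 gave 62.2, 84.2 and 75.4. COL5A1 rose there by 1.90 ± 0.29 with 10 nM GSK212 (adjusted p = 5.14e-05) and by 1.68 to 1.89 with the other treatments that held GSK212. With 1 µM GSK436 alone its change of 0.93 ± 0.29 was not called (adjusted p = 0.732), although all 3 arrays lay above both DMSO arrays, and the difference between the lines at this dose was -1.12 ± 0.41 (adjusted p = 0.0683). The 2 further probe sets of COL5A1 were called higher with 5 of the 6 parental treatments. In resistant cells 1 of the 2 was called with each treatment that held GSK212. The lower of their values was 0.54 with the 0.1 µM combination and 0.46 with the 1 µM combination. For the difference between the lines with DMSO, given further on, 1 of the 2 was called as well.

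In parental cells the 6 changes of COL5A2 ran from -0.44 to 0.55 and none was called. In resistant cells it read 222 and 235 with DMSO, 173, 223 and 243 with 1 µM GSK436, and 566, 645 and 640.0 with the 1 µM combination. It rose by 1.42 ± 0.25 with that combination (limma adjusted p = 9.74e-05), which lay above 1 µM GSK436 alone by 1.53 ± 0.22 (adjusted p = 5.33e-06). It also rose by 1.12 ± 0.25 with 30 nM GSK212 (adjusted p = 0.00299) and by 1.00 ± 0.25 with the 0.1 µM combination, which sits at the size threshold and was lost on leaving out any of 4 of the 5 arrays (0.95 to 1.04), all but array 1 of the combination. The change with the 1 µM combination differed between the lines by 1.78 ± 0.33 (adjusted p = 0.00207). The other probe set of COL5A2 gave 1.27 for this difference, not called. Against DMSO it gave 0.84 with the 1 µM combination, 0.51 with 30 nM GSK212 and 0.54 with the 0.1 µM combination, none called. For the 1 µM combination against 1 µM GSK436 alone it gave 1.06, which was called. After centring, the calls for COL5A2 with 30 nM GSK212, with both combinations and for the line difference were lost. With the mean of both probe sets, the calls with 30 nM GSK212 and the 0.1 µM combination were lost.

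**Figure D4:**
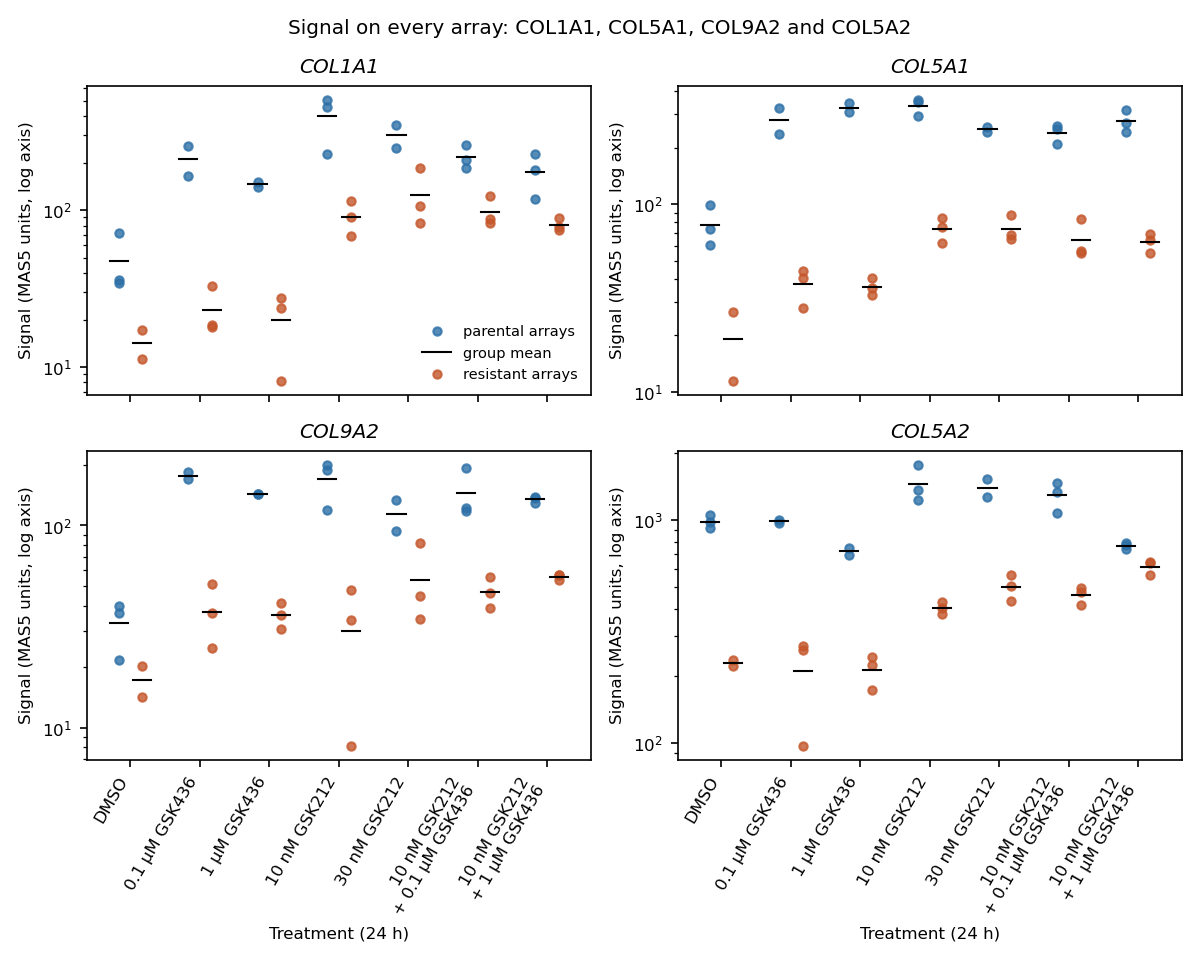
Signal on every array (points, logarithmic axis) of COL1A1, COL5A1, COL9A2 and COL5A2 by treatment, with parental arrays in blue, resistant arrays in orange and black bars for group means. COL5A1 lies at 60.8 to 98.9 with DMSO and at 209.55 to 358 with inhibitor in parental cells, and COL5A2 is lower in resistant than in parental cells throughout.

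Fibroblast markers were measured for all 8 listed genes, since fibroblasts make fibrillar collagen. Their summed signal was 120 to 235 with DMSO in parental cells and 374.6 to 691 with inhibitor, and in resistant cells it was 146 to 179 with DMSO, 180.4 to 494 with GSK436 alone and 461 to 762 with treatments that held GSK212. In parental cells 1 of the 8 rose with 1 µM GSK436 (12.5%, against 19.5% of all genes) and 1 with 10 nM GSK212 (12.5%, against 11.7%). With 0.1 µM GSK436 3 rose (37.5%, against 17.8%), and with the 1 µM combination 2 rose (25%, against 17%). With 30 nM GSK212 and with the 0.1 µM combination 1 rose each (12.5%, against 9.89% and 10.6%). In resistant cells 3 rose with each treatment that held GSK212 (37.5%, against 2.77% to 6.52% of all genes). The median signals of the 8 in parental and resistant arrays were 125 and 135 for LUM, 77.8 and 54.9 for FBLN1, 29.7 and 154 for MFAP5, 52.6 and 24.2 for DCN, 39.2 and 41.7 for PDGFRB, 38.5 and 26.3 for FAP, 36.8 and 24.4 for THY1 and 19.2 and 14.9 for PDGFRA. Of these, 6 in parental and 4 in resistant arrays lay above the pooled median of 34.88, and none was at 0 on any array. The sum thus moved with COL1A1 and COL5A1, and its part in their change was not tested.

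The FACIT class had 9 genes in the fit, 4 of them (44.4%) called at least once, against 36.2% of all genes, and with 1 µM GSK436 in parental cells its share of 22.2% was near the 19.5% of all genes. COL9A2 (chr1:40300489-40317286), a chain of the type IX collagen of cartilage, read 40.0, 36.9 and 21.7 with DMSO in parental cells and 94.3 to 199.85 with inhibitor, without overlap. It rose by 2.07 ± 0.45 with 1 µM GSK436 (limma adjusted p = 0.000601), by 2.28 ± 0.40 with 10 nM GSK212 (adjusted p = 4.57e-05) and by 1.73 to 2.37 with the others; the call at 30 nM GSK212 was lost without array 3 of that group (1.49). Its other probe set gave -0.24 to 0.94 in parental cells and was not called, and the mean of both ended the calls in 4 of the 6 treatments (0.87 to 1.35). In resistant cells COL9A2 read 14.2 and 20.2 with DMSO and 56.6, 54.1 and 56.9 with the 1 µM combination, a rise of 1.57 ± 0.45 (adjusted p = 0.017), lost without either DMSO array (1.35 and 1.78), with quantile normalization and after centring. A second resistant call, with 30 nM GSK212 (1.43 ± 0.45, adjusted p = 0.0448), was lost on leaving out any of 4 of the 5 arrays (1.09 to 1.64), all but array 2 of GSK212. This second call was kept in only 2 of 9 other settings.

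COL16A1 (chr1:31652263-31704017), a fibril-associated collagen with 1 probe set, read 70.4, 67.0 and 111 with DMSO in parental cells, 378 and 339 with 1 µM GSK436 and 243, 369 and 175 with 10 nM GSK212. The groups did not overlap. It rose by 2.11 ± 0.43 with 1 µM GSK436 (limma adjusted p = 0.00036), by 1.99 ± 0.43 with 0.1 µM, by 1.60 ± 0.39 with 10 nM GSK212 (adjusted p = 0.00224) and by 1.71 ± 0.39 with the 1 µM combination. In resistant cells 1 µM GSK436 gave 46.9, 35.4 and 41.4 against 59.2 and 40.4 with DMSO, and its 6 changes ran from -0.33 to 0.30. The lines differed by -2.35 ± 0.61 with 1 µM GSK436 (adjusted p = 0.00962; -2.09 and adjusted p = 0.0855 without resistant DMSO array 1), while the difference of -1.93 ± 0.58 with 10 nM GSK212 did not pass (adjusted p = 0.076).

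COL7A1 (chr3:48564073-48595329), the sole anchoring fibril gene, read 61.1, 83.9 and 121 with DMSO in parental cells, 256 and 208 with 0.1 µM GSK436 and 205 and 209 with 1 µM. It rose by 1.40 ± 0.40 (limma adjusted p = 0.00896), by 1.25 ± 0.40 (adjusted p = 0.0173) and, with the 1 µM combination, by 1.18 ± 0.36 (adjusted p = 0.0122). Each call was lost after centring, and each was lost without parental DMSO array 1 (1.17, 1.02 and 0.95). The calls with GSK436 alone were also lost without array 2 of the dose (1.26 at both doses) and, at 1 µM, without array 3 (1.24). With the actin ratio as a covariate the 3 values were 0.89, 0.83 and 0.84, none called. None of its resistant changes was called.

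COL18A1 (chr21:45405165-45513720), whose product is a basement membrane collagen and the source of endostatin, read 24.4, 25.7 and 34.8 with DMSO in parental cells and 112 and 132 with 1 µM GSK436, a rise of 2.02 ± 0.66 (limma adjusted p = 0.02). Its other probe set was called too (2.29). In resistant cells it read 27.6 and 21.9 with DMSO and 17.0, 2.62 and 3.64 with 1 µM GSK436, a change of -1.63 ± 0.66 that was not called (adjusted p = 1). The lines differed by -3.65 ± 0.93 (adjusted p = 0.0083; -3.50 and adjusted p = 0.0554 without resistant DMSO array 1). In resistant cells the 1 µM combination, at 49.6, 53.4 and 60.9, lay above 1 µM GSK436 alone by 2.69 ± 0.59 (adjusted p = 0.00157). The parental rise at 1 µM GSK436 was lost on leaving out any of 4 of the 5 arrays (1.90 to 2.13), all but parental DMSO array 3. A second parental rise, with the 1 µM combination (1.68 ± 0.59, adjusted p = 0.0309), was lost on leaving out any of 4 of the 6 (1.49 to 1.64), parental DMSO 1 and 2 and arrays 1 and 2 of the combination. Both parental calls were also lost after centring and with the actin ratio as a covariate, and that with the combination with quantile normalization too.

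Several dim genes were also called in parental cells. COL6A6, a further type VI chain, read 16.0, 5.90 and 16.6 with DMSO and 81.9 and 99.99 with 1 µM GSK436, and rose by 2.67 ± 0.72 (limma adjusted p = 0.00507), by 2.5 ± 0.72 with 0.1 µM and by 2.48 ± 0.64 with the 1 µM combination. Its calls with GSK436 alone were lost without array 3 of the dose (2.53 at 1 µM, 2.32 at 0.1 µM) and, at 0.1 µM, without parental DMSO array 2 (2.12). The call at 0.1 µM was also lost with the actin ratio as a covariate. COL8A2 with 1 µM GSK436 (2.40 ± 0.91, adjusted p = 0.0439), COL2A1 with the 1 µM combination (2.33 ± 0.79, adjusted p = 0.0257) and COL26A1 with 0.1 µM GSK436 (2.13 ± 0.79, adjusted p = 0.0424) were each called in 1 parental treatment. Each of these 3 calls was lost on leaving out any of 3 or 4 arrays, with values of 1.89 to 2.91 for COL8A2, 1.81 to 2.44 for COL2A1 and 0.96 to 2.02 for COL26A1. Each was also lost with quantile normalization, after centring and with the actin ratio as a covariate. COL26A1 passed the filter only through 2 parental arrays with GSK436, at 54.3 (0.1 µM) and 43.1 (1 µM). Its other 0.1 µM array read 8.45, and its entry into the fit thus depended on the arrays where it is high.

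In the resistant clone GSK436 alone gave 0 calls in limma among the 41 collagen genes at 0.1 µM (0.00554% of all genes were called) and 0 at 1 µM (0.0775%). At each dose 3 of the 41 had an unadjusted p under 0.05, as had 4.35% of all genes at 0.1 µM and 3.27% at 1 µM. At 1 µM 0.072% of all genes rose and 0.00554% fell. With 10 nM GSK212, 2 rose and 2 fell (9.76%), against 2.77% of all genes, 2.15% higher and 0.615% lower. With 30 nM, 4 rose and 2 fell (14.6%), against 4.31%, 3.37% higher and 0.941% lower. All 4 genes called at 10 nM (COL1A1, COL5A1, COL13A1 and COL6A3) were called at 30 nM too. The 0.1 µM combination gave 4 higher and 2 lower (14.6%), against 4.86%, 3.83% higher and 1.03% lower. The 1 µM combination gave 5 higher and 2 lower (17.1%), against 6.52%, 4.83% higher and 1.69% lower. After centring these became 2 and 2, 2 and 4, 2 and 3, and 2 and 3, and with quantile normalization the 2 combinations gave 2 higher with 2 lower and 3 higher with 2 lower. Among all genes called, centring took the percent higher from 77.8 to 26.6 with 10 nM GSK212 and from 78.1 to 23.9 with 30 nM. For the combinations at 0.1 and 1 µM it went from 78.8 to 30 and from 74.1 to 25.6. The count at 10 nM was 2 without either resistant DMSO array, and that for the 0.1 µM combination was 3 without resistant DMSO array 2.

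The 1 µM combination in resistant cells was higher than 1 µM GSK436 alone for 4 collagen genes and lower for 2 (14.6%), against 5.53% of all genes, 4.07% higher and 1.46% lower. Beside COL1A1, COL5A2, COL18A1 and COL13A1, these were COL4A5 (1.11 ± 0.26, limma adjusted p = 0.00362) and COL27A1. The COL4A5 call was lost with quantile normalization (0.88), after centring (0.89) and with the mean of its probe sets (0.39), of which the other gave -0.33. COL27A1 (chr9:114154098-114312511), a fibrillar collagen of cartilage, read 991 and 561 with DMSO, 769, 621 and 534 with 1 µM GSK436, and 319.5, 266 and 324 with the 1 µM combination, which lay below both. It fell by 1.30 ± 0.32 against DMSO (adjusted p = 0.00592), with -0.89 without resistant DMSO array 1. Against GSK436 alone it fell by 1.06 ± 0.29 (adjusted p = 0.0119), lost without array 1 of GSK436 (-0.92) or array 2 of the combination (-0.97). Its 4 other probe sets gave -1.22 to 0.62 against DMSO, 1 of them called, and -0.96 to 0.14 against GSK436 alone, none called. With the mean of all probe sets both calls were lost. The call against GSK436 alone was also lost with the actin ratio as a covariate and without arrays of high actin ratio. Against 10 nM GSK212 alone, the 1 µM combination gave 0 calls in limma among the 41 genes (0.559% of all genes, 0.371% higher and 0.188% lower), and 1 call without array 3 of the combination. Of the 41 genes, 5 had an unadjusted p under 0.05, as had 11.2% of all genes. In parental cells 1 collagen gene, COL4A6, was called between 1 µM GSK436 and 10 nM GSK212 (2.44%, against 0.814%, 0.382% higher and 0.432% lower). That count was 0 without either GSK436 array or array 3 of GSK212, and 4 without array 1 of GSK212.

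The change with 1 µM GSK436 differed between the lines for 6 collagen genes (14.6%), 3 in each direction, against 11% of all genes, 5.46% higher and 5.51% lower. The resistant change was the higher for COL13A1, COL4A1 and COL6A3 and the lower for COL16A1, COL18A1 and COL4A5 (-1.32 ± 0.42, limma adjusted p = 0.0322, lost without any of the 10 arrays but parental DMSO 2, resistant DMSO 2 and resistant GSK436 1, -1.43 to -1.14). The other probe set of COL4A5 gave 1.05 for this difference, in the opposite direction and not called, and the mean of both gave -0.13. The COL4A5 call was also lost with quantile normalization (-1.04), after centring (-0.84) and in a fit of those groups alone (adjusted p = 0.078). The count was 2 without resistant DMSO array 1, and 3 higher with 2 lower after centring. With 10 nM GSK212, 2 genes differed, COL13A1 and COL4A1 (4.88%), against 1.9% of all genes, 0.925% higher and 0.974% lower. The count was 1 without any of 8 of the 11 arrays, COL13A1 was higher and COL16A1 lower after centring, and COL16A1 was called lower beside the 2 with quantile normalization. With the 1 µM combination 2 differed, COL4A1 and COL5A2 (4.88%), against 1.05%, 0.659% higher and 0.393% lower, and after centring only COL27A1 differed, with the lower change in the resistant line.

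With DMSO alone, 2 collagen genes were higher and 5 lower in the resistant clone than in the parental line (17.1%), against 3.64% of all genes called, 1.47% higher and 2.16% lower. COL9A3 (chr20:62816213-62841159), a chain of type IX collagen, read 478, 406 and 427 in parental cells and 1.72 and 1.22 in the clone. All 20 resistant arrays lay at or under 29.0, and all 18 parental arrays at or above 406. The log2 fold change was -6.69 ± 0.53 (limma adjusted p = 4.24e-11), and it was -5.30 with a pseudocount at the 25th percentile (9.88). In parental cells COL9A3 also rose with 10 nM GSK212, from those DMSO values to 1059, 1512 and 1479 (1.61 ± 0.48, adjusted p = 0.0128; lost without array 2 of that group, 1.52, and after centring).

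Both type V chains were lower in the clone. COL5A2 read 1054, 981 and 915 in parental cells and 222 and 235 in resistant cells (-2.09 ± 0.25, limma adjusted p = 2.1e-07), a call kept under every setting and without any single array. COL5A1 was lower by 1.95 ± 0.29 (adjusted p = 1.45e-05), with the signals given above and no overlap, and kept its call without any single array, but not in a fit of those groups alone (adjusted p = 0.0659). COL4A2 read 703 and 465 in resistant cells, below all 3 parental DMSO arrays (-1.33 ± 0.24, adjusted p = 0.000214; -1.04 and adjusted p = 0.0505 without resistant DMSO array 2). Its second probe set gave -0.54, not called, and with the mean of both the call was lost (-0.94, adjusted p = 0.309). COL1A1 was lower by 1.5 ± 0.42 (adjusted p = 0.0256), and this call was lost without resistant DMSO array 1 (-1.76), array 2 (-1.24) or parental DMSO array 3 (-1.18), with quantile normalization and after centring, and turned to 0.05 with the mean of all its probe sets.

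COL12A1 (chr6:75084326-75206053), a FACIT collagen of tendon and ligament, was higher in the clone, at 303 and 360.4 against 125, 179 and 107 (1.29 ± 0.32, limma adjusted p = 0.00999). The call was lost without resistant DMSO array 2 (1.16) or parental DMSO array 3 (1.13). After centring the fold was larger, at 1.56, but its adjusted p was 0.0544. Its 4 other probe sets gave -0.25 to 0.92, none called, and the mean of all gave 0.40, not called. COL8A1 (chr3:99638594-99799217), a chain of the short-chain network of vessel and corneal basement membranes, read 107 and 117 in the clone against 36.8, 13.2 and 8.82 (2.56 ± 0.72, adjusted p = 0.0263), lost on leaving out any of the 5 arrays but parental DMSO array 1 (2.19 to 2.63). Its groups did not overlap with DMSO, and over all treatments COL8A1 read 85.2 to 177 in the clone and 1.29 to 39.4 in parental cells. The other COL8A1 probe set in the fit gave 0.52, not called. The call was also lost with the mean of all probe sets and in a fit of those groups alone. The count of 7 calls between the lines fell to 3 without resistant DMSO array 2 and to 4 without parental DMSO array 3.

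**Figure D5:**
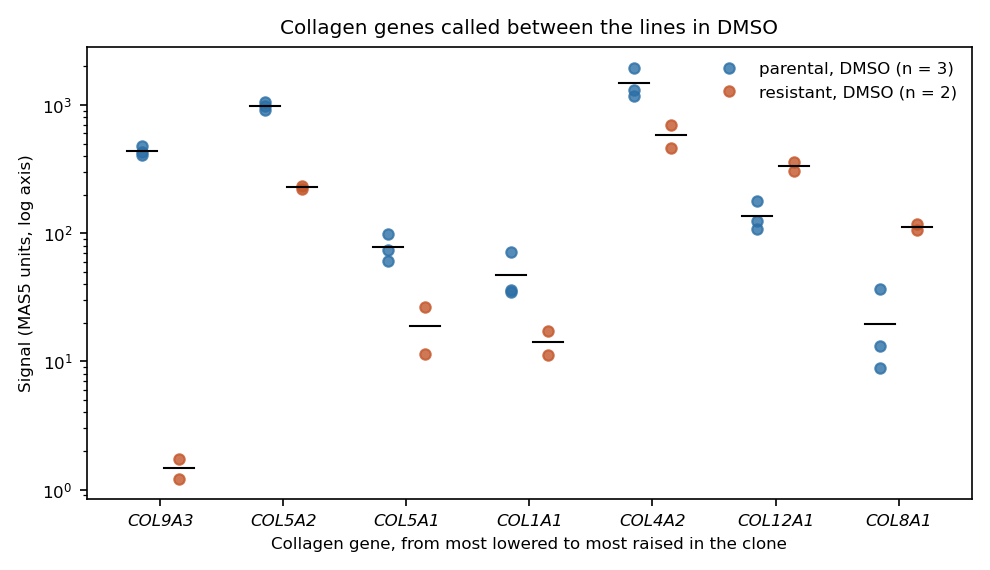
Signal (points, logarithmic axis) of the 7 collagen genes called between the lines with DMSO, on 3 parental arrays (blue) and 2 resistant arrays (orange), with black bars for group means. COL9A3 lies at 406 to 478 in parental cells and under 2 in the clone. The arrays of the lines do not overlap for these 7 genes, which were selected by their call on the same arrays, so this adds no support.

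The 19 collagen genes never called included 17 whose median signal lay under the pooled median of 34.88, among them COL1A2, COL3A1 and COL11A1; the other two were COL6A1 and COL11A2. COL11A2, a chain of cartilage type XI collagen, read 6.93 to 148 over all arrays. The multiplexin COL15A1 and the transmembrane chains COL23A1 and COL25A1 were among the 17. A gene of low signal had less chance to be called, so the lack of a call does not show that its level stayed the same. COL9A1 did not exceed 15.9 and COL24A1 did not exceed 31.0 on any array.

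Enzymes and partners that make, cut, cross-link and bind collagen were taken from a list of 43 genes, of which 41 entered the fit. With 1 µM GSK436 in parental cells 10 rose and 3 fell (31.7%), against 19.5% of all genes, 11.8% higher and 7.68% lower. At 10 nM GSK212, 7 rose and 1 fell (19.5%), against 11.7%. With the 1 µM combination in resistant cells, 6 rose and 1 fell (17.1%), against 6.52%, 4.83% higher and 1.69% lower. LOXL4, an enzyme that cross-links collagen, had mean signals of 332 with DMSO and 2141 with 1 µM GSK436 in parental cells, and 42.2 with DMSO and 43.0 with 1 µM GSK436 in the clone. It rose by 2.68 ± 0.30 in parental cells (limma adjusted p = 3.77e-08), was lower in the clone with DMSO by 3.00 ± 0.30, and rose in the clone by 2.94 ± 0.30 with 10 nM GSK212 (adjusted p = 3.04e-08). The lines differed in its change with 1 µM GSK436 by -2.56 ± 0.43 (adjusted p = 0.00011).

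Of the 8 genes that cut off the end pieces of procollagen, 3 rose and 1 fell with 1 µM GSK436 in parental cells (50%, against 19.5% of all genes). BMP1, the main protease for the carboxy-terminal piece, rose by 2.10 ± 0.41 (limma adjusted p = 0.000187), its relative TLL2 by 3.68 ± 0.78 and its enhancer PCOLCE by 1.66 ± 0.26, while ADAMTS3, which cuts the amino-terminal piece, fell by 1.20 ± 0.30. Of the 14 modifying enzymes in the fit 3 rose (21.4%), a share near the 19.5% of all genes, among them the prolyl hydroxylases P4HA2 (1.28 ± 0.17) and P3H2 (1.30 ± 0.21). With DMSO the clone had more P3H2 (3.34 ± 0.21) and PLOD2, a lysyl hydroxylase (1.68 ± 0.18), and less P4HA2 (-1.43 ± 0.17). Among 7 receptors 2 rose and 2 fell (57.1%, against 19.5%). ITGA2, the collagen-binding integrin chain, fell by 4.23 ± 0.59 with 1 µM GSK436 in parental cells (adjusted p = 1.95e-06) and MRC2, which takes up collagen, rose by 1.70 ± 0.35.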

How the data were processed

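The authors deposited 1 linear signal intensity per probe set and array. The submitters' processing notes name MAS5, without a version; no detection calls were used here. RNA was labelled from 500 ng per the labels' protocols. Genes were named with the platform's annotation, and probe sets naming several genes were left out. Probe sets needed a signal over the pooled median (34.88) on at least 2 arrays, and the one with the highest mean log2 signal stood for a gene. Values entered as log2(signal + 2.8), the 10th percentile. For 18063 genes, limma 3.58.1 in R 4.3.3 (eBayes with trend) fitted 14 group means, leaving 24 residual degrees of freedom, and p was adjusted within each comparison. The script was tested on simulated data. Members called in at least 1 comparison are named with values, and of the pathway list up to 4 called genes per group. The members and lists were chosen with earlier results of these data known. Alternatives were quantile normalization, centring, another pseudocount, no filter, the mean of probe sets, a replicate block, actin control ratio as covariate or limit (20), only the groups compared, and leaving out each array. Promoters came from RefSeq (GRCh38.p14), read with Python 3.11.15.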

Additional observations from a re-analysis of the deposited data

Results flagged for a closer look

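The change with 1 µM GSK436 against DMSO differed between resistant and parental cells (resistant minus parental, log2, limma over all genes) for COL13A1 by 5.53, for COL4A1 by 2.18 and for COL6A3 by 1.35. It differed in the other direction for COL18A1 by -3.65, for COL16A1 by -2.35 and for COL4A5 by -1.32. For COL4A5 the other probe set gave 1.05, the opposite direction, and the mean of both -0.13, and 4 of 8 settings ended the call. With 10 nM GSK212 the change differed for COL13A1 by 4.40 and for COL4A1 by 1.16. With 10 nM GSK212 plus 1 µM GSK436 it differed for COL4A1 by 1.71 and for COL5A2 by 1.78. No other probe set of COL13A1, COL18A1 or COL5A2 was called for these differences. That of COL4A1 gave 1.61 with 1 µM GSK436 and 0.91 with the 1 µM combination, neither called.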

How the results depend on the processing

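Counts of called collagen genes stayed within 1.5 times the reported count in all 19 comparisons with quantile normalization and with no filter. Averaging a gene's probe sets gave other counts: the count between the lines with DMSO was 3. In parental cells it was then 3 with 30 nM GSK212 and 4 with the 0.1 µM combination, and in resistant cells 3 with 30 nM GSK212 and 3 with each combination. The line difference was then 0 for 10 nM GSK212 and 1 for the 1 µM combination, and COL1A1 between the lines turned to 0.05. In fits of only the groups compared, the count was 4 between the lines, 3 with 30 nM GSK212 in resistant cells, 1 for the line difference at 10 nM GSK212, 1 for the resistant 1 µM combination against 10 nM GSK212 and 0 for parental 1 µM GSK436 against 10 nM GSK212. For that last comparison it was 2 with centring, with the replicate block and with the actin covariate. Centring gave 1 for the line difference with the 1 µM combination, the higher pseudocount gave 1 for the resistant combination against 10 nM GSK212, and the actin covariate gave 4 for the line difference at 10 nM GSK212. Without arrays of actin ratio above 20, the count was 2 with 10 nM GSK212 in resistant cells and 1 for the line differences at 10 nM GSK212 and with the 1 µM combination; the 4 comparisons that use parental GSK436 alone could not be computed. The cause of these changes was not tested. Of 108 single gene calls, 92 were kept with quantile normalization, 80 with centring, 66 with the mean of probe sets and 107 with the replicate block.

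The replicate numbers only name arrays: over 105 pairs of equal number the median correlation of deviations was 0.00809, and 6 exceeded 0.1. The block moved 1 count, as given above, and ended 1 single gene call, that of COL4A6 with 1 µM GSK436 in parental cells (-1.8, adjusted p = 0.0551, limma).

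Leaving out single arrays, where a group left with 1 array is assumed to vary like the others, gave 3 to 7 calls between the lines. In parental cells it gave 9 to 13 and 8 to 12 with 0.1 and 1 µM GSK436, 8 to 12 and 7 to 9 with 10 and 30 nM GSK212, and 7 to 9 and 9 to 13 with the combinations. In resistant cells it gave 0 to 0 with either GSK436 dose, 2 to 4 and 4 to 6 with GSK212, and 3 to 6 and 5 to 7 with the combinations. Line differences gave 2 to 7, 1 to 3 and 2 to 3. The resistant 1 µM combination gave 5 to 7 against GSK436 and 0 to 1 against GSK212, and parental GSK436 against GSK212 gave 0 to 4. The number of arrays limits all of these, and signals near the pooled median leave dim collagens without a test of small changes.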
